A study of Mus musculus with 2 samples.

Results

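Nuclei of the mouse preoptic area that held mRNA of the aromatase gene Cyp19a1 together with mRNA of a GABA-synthesizing enzyme were picked out of 2 single-nucleus libraries. A nucleus was taken when it had at least 1 unique molecular identifier (UMI, 1 counted mRNA molecule) of Cyp19a1 and at least 1 of Gad1 or Gad2, the glutamate decarboxylases that make GABA. This gave 396 of 20952 nuclei (1.89%), 175 of 11040 in POA-CON and 221 of 9912 in POA-US. All mice were wild type (WT) and 6 to 9 weeks old. POA-CON came from sham-treated mice and POA-US from mice whose preoptic area was stimulated with ultrasound, and tissue was taken about 1 h later. Each library pooled 4 mice, and nuclei were sorted on DAPI and on the neuronal protein NeuN. With 1 library for each treatment and no mouse of origin for a nucleus, treatment, pool and dissection cannot be told apart, so differences between POA-CON and POA-US compare the libraries and carry no test. Intervals are 95% intervals for counting error only.

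Aromatase converts androgens such as testosterone into estrogens, and in the brain it is made by neurons of the preoptic area, the bed nucleus of the stria terminalis and the amygdala. Estrogen made there acts through the nuclear receptors Esr1 and Esr2 on the same or nearby neurons and is known for its part in sexual, parental and aggressive behavior. The levels of Cyp19a1, Gad1 and Gad2 chose the nuclei and are therefore a description.

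Cyp19a1 lies on the minus strand of chromosome 9 at 54165937 to 54268110 (GRCm38). The long noncoding RNA gene Gldnos ends 467 bases upstream of it on the same strand (54268578 to 54301570), and Gldn, which encodes the extracellular adhesion protein gliomedin, starts 18375 bases upstream on the plus strand (54286486 to 54341786). RefSeq gives 3 start windows for Cyp19a1. The window nearest to Gldnos is shown because those 2 neighbors appear among the results, with the nuclear receptor core motif AGGTCA, read here on the other strand as TGACCT, in capitals (GRCm38.p6, chr9:54268115-54268414, minus strand, 5′ to 3′, 250 bases before the start and 50 after).
Cyp19a1 promoter: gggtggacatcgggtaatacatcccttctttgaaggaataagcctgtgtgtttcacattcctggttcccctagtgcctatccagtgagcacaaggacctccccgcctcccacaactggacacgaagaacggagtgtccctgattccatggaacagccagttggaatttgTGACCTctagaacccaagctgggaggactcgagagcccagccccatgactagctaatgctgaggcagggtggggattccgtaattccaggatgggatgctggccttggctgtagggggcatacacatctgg
The motif occurred once in it and not in the other 2 windows. On either strand it was in 5340 of 32851 promoter windows of this length (16.3%), so its presence is common and is given as a description of the letters. UMIs from the 3′ end of a transcript do not tell which start was used.

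Cyp19a1 was a low-count gene even in the nuclei chosen for it. In POA-CON, 117 of the 175 nuclei held 1 Cyp19a1 UMI, 37 held 2 and 21 held 3 or more, up to 7. The corresponding numbers in POA-US were 122, 36 and 63, up to 10. The threshold of 1 UMI thus admitted most of the nuclei with no margin, and a further 31 nuclei of POA-CON and 50 of POA-US held Cyp19a1 but no Gad1 or Gad2 UMI and were left out. Of the nuclei admitted, 32 in POA-CON and 53 in POA-US had exactly 1 UMI of Gad1 and Gad2 together. Over all nuclei the Cyp19a1 level was 3.22 CPM (UMIs of the gene per 1e+06 UMIs, summed over nuclei) in POA-CON and 7.08 in POA-US.

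Free RNA can give a nucleus a UMI of a gene that it does not express, so the share of nuclei with Cyp19a1 was also read in classes that differ in type. Nuclei with at least 4 of 8 oligodendrocyte markers should lack aromatase. They held Cyp19a1 in 0 of 29 cases in POA-CON (0%, interval 0 to 11.9) and in 3 of 123 (2.44%, interval 0.506 to 6.96) in POA-US. None of those 123 nuclei had 3 or more Cyp19a1 UMIs. Their median depth was 5867 UMIs in POA-CON and 8966 in POA-US, against 8164 and 7964.5 for all nuclei with Gad1 or Gad2, where the shares were 1.98% and 3.04%. The share in GABAergic nuclei of POA-US lay inside the interval of the oligodendrocyte-marker nuclei, which is wide and rests on 3 nuclei. By CPM the GABAergic nuclei of POA-US were above them, at 7.51 (interval 6.87 to 8.19) against 2.13 (interval 0.439 to 6.21). In POA-CON they were not distinguishable, at 3.31 CPM against 0 with an upper bound of 16.9. The classes thus differed by level in POA-US, but 1 Cyp19a1 UMI in a given nucleus can still be background. Shares differed between some neuronal classes. Nuclei with Slc17a6, the vesicular glutamate transporter, and no Gad1 or Gad2 held Cyp19a1 in 3 of 720 cases in POA-CON (0.417%, interval 0.0860 to 1.21) and in 19 of 871 in POA-US (2.18%, interval 1.32 to 3.39). Nuclei with at least 4 of 8 markers of striatal projection neurons held it in 4.36% (interval 3.53 to 5.32) and 5.58% (interval 3.85 to 7.79), at median depths of 9400 and 11316 UMIs. Thinned to 2000 UMIs, the shares of the latter were 1.09% (interval 0.692 to 1.63) and 1.57% (interval 0.721 to 2.96), against 0.645% and 1.16% of all nuclei with Gad1 or Gad2. The excess of the striatal-marker nuclei was thus smaller at equal depth, and in POA-US it lay within counting error.

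The striatal markers split the Cyp19a1-positive nuclei of each library differently. They include Drd1 and Drd2, receptors of dopamine, Adora2a, a receptor of adenosine, the signaling genes Ppp1r1b, Rgs9 and Gng7, and the retinoic acid receptor Rarb, and the list was used to detect cells from outside the target area. At least 4 of the 8 were detected in 83 of the 175 Cyp19a1-positive GABAergic nuclei of POA-CON (47.4%) and in 30 of the 221 of POA-US (13.6%). Over all nuclei the shares were 19.1% and 5.78%, so the libraries as a whole also differed in these markers. All 8 markers were detected in both sets, with a summed level of 1788 CPM in POA-CON and 647 CPM in POA-US, where other GABAergic nuclei had 880 and 386 CPM. Rarb carried most of the sum, at 1177 and 401 CPM. Drd2 and Adora2a went the other way in both libraries, with Drd2 at 17.1 against 40.9 CPM of other GABAergic nuclei in POA-CON and 11.3 against 15.05 CPM in POA-US, and Adora2a at 9.07 against 14.0 CPM and 3.78 against 3.92 CPM. The cut of 4 divides a continuous range: 50 of the POA-CON nuclei and 28 of the POA-US nuclei had 3 markers, and 44 and 12 had 4. Nuclei under the cut were not free of these genes, with a summed level of 1127 CPM in POA-CON and 298 CPM in POA-US. Drd1 alone was seen in 44.6% and 12.2% of the Cyp19a1-positive nuclei, and Foxp2, a transcription factor of striatal and other projection neurons, in 82.3% and 39.8%. Every result below is therefore given for all nuclei and, where it matters, for the 92 nuclei of POA-CON and 191 of POA-US under 4 markers.

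**Figure D1:**
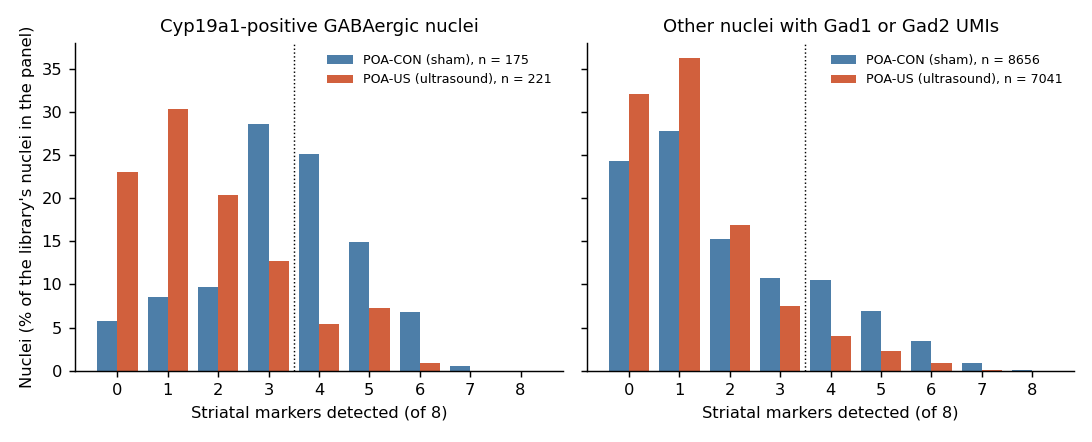
Percent of nuclei (y axis) by the number of 8 striatal markers detected (x axis), for Cyp19a1-positive GABAergic nuclei (left) and all other nuclei with Gad1 or Gad2 (right), with the cut of 4 markers dotted. POA-CON (blue) peaks at 3 and 4 markers among the Cyp19a1-positive nuclei, 50 and 44 of 175, while POA-US (orange) peaks at 1 marker.

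The label aromatase-expressing GABAergic neuron rested on Cyp19a1 and Nr2f2, the nuclear receptor COUP-TFII that marks a class of inhibitory neurons. Nr2f2 did not mark these nuclei in POA-CON, at 11.6 CPM against 11.4 CPM in all other nuclei (ratio 1.01, interval 0.640 to 1.53). In POA-US it was 41.6 against 23.3 CPM (ratio 1.78, interval 1.44 to 2.18). A Nr2f2 UMI was present in 15 of 175 and 69 of 221 nuclei. Under 4 striatal markers and against other such GABAergic nuclei, the ratios were 1.56 (interval 0.905 to 2.52) and 2.02 (interval 1.61 to 2.50). Slc32a1, the vesicular GABA transporter, was detected in 16.0% and 25.8%, against 22.2% and 23.7% of other GABAergic nuclei. After thinning to equal depth its share was below theirs in POA-CON, at 1.71% (interval 0.355 to 4.93) against 6.07%. In POA-US it was not distinguishable, at 6.33% (interval 3.51 to 10.4) against 6.83%. Slc17a6 was detected in 10.9% and 16.3%, against 7.65% and 12.8%, within counting error. A Gad1 or Gad2 UMI was present in 76.8% of all nuclei, so that part of the rule left out only a minority. The nuclei are therefore named here by their rule, as Cyp19a1-positive GABAergic nuclei.

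They made up 1.59% of the nuclei of POA-CON (interval 1.36 to 1.84) and 2.23% of those of POA-US (interval 1.95 to 2.54), a ratio of 1.41 (interval 1.15 to 1.73). Among nuclei with Gad1 or Gad2 the shares were 1.98% and 3.04%. Their median depth, 9746 UMIs in POA-CON and 8923 in POA-US exceeded that of the other nuclei (7632 and 7358). The rule itself favors deep nuclei. When every nucleus was reduced by random draw to 2000 UMIs (thinning), 28 (0.254%) and 48 (0.484%) still met the rule, a ratio of 1.91 (interval 1.17 to 3.16). Leaving out nuclei with 4 or more striatal markers gave 1.03% and 2.05%, a ratio of 1.98, and leaving out those with 3 or more gave 0.538% and 1.87%, a ratio of 3.48. The ratio was thus above 1 under each of these readings but ranged from 1.41 to 3.48. With no UMI minimum it was 1.26 (interval 1.03 to 1.55). The part of striatal content in these differences was not tested.

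Receptors for sex steroids, through which locally made estrogen and its precursors act, did not set these nuclei apart from other nuclei in a common direction. The list of 10 steroid receptor genes also holds the glucocorticoid, mineralocorticoid and estrogen-related receptors. Of these 10 genes 9 had enough UMIs to be read. Against all other nuclei, 0 of the 9 were at least 2-fold higher and 0 at least 2-fold lower in both libraries. Over all 16669 genes read this way, 44 (0.264%) were higher and 393 (2.36%) lower, and 32 and 95 of these also had intervals that stayed on 1 side of 1 in both libraries. The remaining calls had an interval that reached 1 in at least 1 library. At such shares, 0 calls among 9 genes is near the share of all genes. The median ratio of the 9 was 0.777 in POA-CON and 1.12 in POA-US, beside 0.913 and 0.955 over all genes. Gper1, the membrane estrogen receptor, had 0 and 1 UMIs.

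Esr1, estrogen receptor alpha, had opposite placements in the libraries. Its level was 29.7 CPM in the Cyp19a1-positive nuclei of POA-CON against 66.5 CPM in the other nuclei (ratio 0.447, interval 0.340 to 0.578), and 115 against 102 CPM in POA-US (ratio 1.13, interval 0.997 to 1.27). After thinning, an Esr1 UMI was present in 4 of 175 nuclei of POA-CON (2.29%, interval 0.626 to 5.75) against 8.83% of the others, and in 48 of 221 of POA-US (21.7%, interval 16.5 to 27.7) against 13.4%. Without thinning the shares were 15.4% (interval 10.4 to 21.6) against 18.3% in POA-CON and 46.6% (interval 39.9 to 53.4) against 27.5% in POA-US. Esr1 was thus more frequent than elsewhere in POA-US on both readings, and sparser in POA-CON by CPM and after thinning, where the share rests on 4 nuclei, but not distinguishable without thinning. By CPM the order was the same under 4 striatal markers against other such GABAergic nuclei, with ratios of 0.336 (interval 0.215 to 0.501) and 1.19 (interval 1.04 to 1.35). Read the other way, GABAergic nuclei with Esr1 and under 4 striatal markers held Cyp19a1 in 12 of 1403 cases in POA-CON (0.855%) and 95 of 2049 in POA-US (4.64%), while those without Esr1 held it in 1.47% and 2.06%. After thinning, the shares with and without Esr1 were not distinguishable in POA-CON, at 0.428% (interval 0.157 to 0.928) against 0.550%. In POA-US they were 1.95% (interval 1.40 to 2.65) against 0.793%.

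Other receptors of this group had no common placement. Pgr, the progesterone receptor and a known estrogen target, had CPM ratios of 0.777 (interval 0.624 to 0.957) and 0.802 (interval 0.684 to 0.936). Its thinned shares did not differ in POA-CON beyond counting error, at 9.71% (interval 5.76 to 15.1) against 9.40% of other nuclei, nor in POA-US, at 10.4% (interval 6.71 to 15.2) against 13.3%. Esr2, estrogen receptor beta, rested on 4 UMIs in POA-CON (ratio 0.645, interval 0.175 to 1.67) and on 30 in POA-US, where it was 12.6 against 6.32 CPM (ratio 1.99, interval 1.33 to 2.88). By CPM Nr3c1, the glucocorticoid receptor, was the member above other nuclei in both libraries. It was at 77.6 against 64.6 CPM (ratio 1.2, interval 1.02 to 1.41) and 116 against 73.8 CPM (ratio 1.57, interval 1.39 to 1.77). It kept this by CPM under 4 striatal markers, with ratios of 1.44 and 1.76. Its thinned shares did not differ beyond counting error, at 12% (interval 7.58 to 17.8) against 12.1% in POA-CON. In POA-US they were 14.9% (interval 10.5 to 20.3) against 12.6%. The same held for thinned shares under 4 striatal markers. Without thinning the shares were higher, at 48% (interval 40.4 to 55.7) against 35.03% and 54.3% (interval 47.5 to 61) against 35.6%. Nr3c2, the mineralocorticoid receptor, had ratios of 1.07 and 0.856. Of the estrogen-related orphan receptors, which do not bind estrogen, Esrrg had ratios of 1.01 and 0.827 and Esrra of 0.625 and 0.910, while Esrrb had 0 UMIs in POA-CON and 12 in POA-US.

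**Figure D2:**
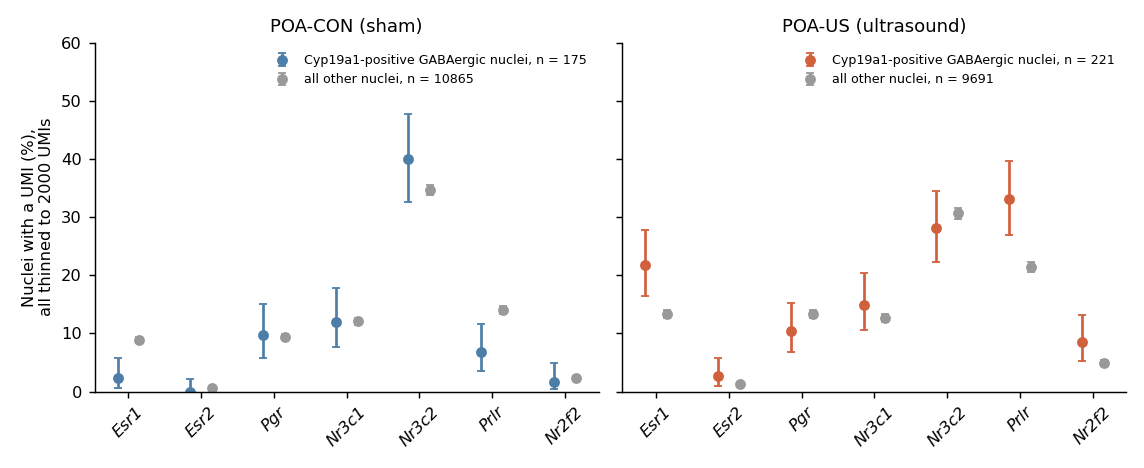
Percent of nuclei with a UMI of each gene (y axis) after every nucleus was thinned to 2000 UMIs, in POA-CON (left) and POA-US (right), for Cyp19a1-positive GABAergic nuclei (colored) and all other nuclei (gray), with 95% Clopper-Pearson intervals. Esr1 and Prlr lie below the other nuclei in POA-CON (2.29% against 8.83% and 6.86% against 14.0%) and above them in POA-US (21.7% against 13.4% and 33.0% against 21.4%).

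Genes that make or break down steroids had a summed level within counting error of that in other nuclei. Over the 28 such genes in the annotation other than Cyp19a1, it was 270.0 CPM in POA-CON (interval 248 to 294) and 264.9 CPM in POA-US (interval 245 to 286). The other nuclei had 285.5 and 285.7 CPM. Of the 28 genes 17 could be read, and 0 were at least 2-fold higher and 0 at least 2-fold lower in both libraries. Over all genes 0.264% were higher and 2.36% lower, so 0 calls among 17 genes is near that share. Cyp7b1, an oxysterol and neurosteroid hydroxylase, had ratios of 1.35 (interval 1.09 to 1.65) and 0.921. Cyp11a1, the enzyme that starts steroid synthesis from cholesterol, had 1 and 4 UMIs. Of 13 coregulators of steroid receptors that could be read, 0 passed in either direction, again near the share of all genes. Their median ratios were 0.964 and 0.994, beside 0.913 and 0.955 over all genes.

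The 12 genes linked to sex hormones gave 0 higher and 1 lower, beside 0.264% and 2.36% of all genes. The lower one, Cckar, a cholecystokinin receptor, had 0 and 2 UMIs where other nuclei had 1.30 and 2.19 CPM, so the call rests on few molecules. Prlr, the prolactin receptor, had the same order as Esr1. It was 57.4 against 101 CPM in POA-CON (ratio 0.571, interval 0.470 to 0.686) and 241 against 158 CPM in POA-US (ratio 1.52, interval 1.40 to 1.66). Under 4 striatal markers the ratios to other GABAergic nuclei were 0.830 (interval 0.664 to 1.03) and 1.65 (interval 1.51 to 1.81). Calcr, the calcitonin receptor, had ratios of 0.565 (interval 0.357 to 0.851) and 1.31 (interval 1.07 to 1.59). Greb1, a textbook estrogen-induced gene, had 8 UMIs in POA-CON and 32 in POA-US. Its ratios were 0.917 (interval 0.393 to 1.82) and 1.59 (interval 1.08 to 2.26), and 1.90 (interval 0.812 to 3.79) and 2.0 (interval 1.35 to 2.85) under 4 striatal markers.

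The upstream neighbors Gldn and Gldnos, named after their values were seen, differed in how firmly they stood above other nuclei. Gldn was above them in both libraries, at 15.1 against 9.18 CPM in POA-CON (ratio 1.65, interval 1.10 to 2.37) and 55.0 against 14.2 CPM in POA-US (ratio 3.88, interval 3.22 to 4.65). Gldnos was above them in POA-US, at 26.0 against 6.83 CPM (ratio 3.81, interval 2.88 to 4.96), and not distinguishable from them in POA-CON, at 5.54 against 4.09 CPM (ratio 1.36, interval 0.672 to 2.45). The Gldn ratios under 4 striatal markers were 1.99 (interval 1.17 to 3.18) and 4.68 (interval 3.83 to 5.68). The genes overlap by 15085 bases on opposite strands, and how the counting treated strand was not given in the sources used here, so reads of the pair may be shared between them. In nuclei with 1, 2 and 3 or more Cyp19a1 UMIs in POA-US, Gldn was at 51.5, 50.5 and 65.9 CPM, against 13.2 CPM in GABAergic nuclei with none.

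The share of all genes at least 2-fold higher in both libraries was 0.264%, and of those lower 2.36%. Among 28 neuropeptide genes that could be read, Crh, which encodes corticotropin-releasing hormone, was the only one at least 2-fold higher in both libraries. It was 8.06 against 3.59 CPM in POA-CON (16 UMIs, ratio 2.24, interval 1.27 to 3.70) and 20.6 against 6.27 CPM in POA-US (49 UMIs, ratio 3.28, interval 2.40 to 4.40). At least 2-fold lower in both was Avp, vasopressin, at ratios of 0.449 (interval 0.305 to 0.639) and 0.393 (interval 0.298 to 0.509). Gnrh1, gonadotropin-releasing hormone, was the other one and had 1 UMI in each library (ratios 0.212, interval 0.00535 to 1.19, and 0.151, interval 0.00379 to 0.847). Penk, which encodes the enkephalins, was just outside that limit in POA-US, at 27.2 against 57.5 CPM (ratio 0.473, interval 0.355 to 0.618) and 28.5 against 55.2 CPM (ratio 0.517, interval 0.401 to 0.656). Gal, the galanin gene of many preoptic neurons, had ratios of 1.05 and 1.04, close to all other nuclei. Tac1, which encodes substance P, had ratios of 1.88 (interval 1.57 to 2.24) and 1.14 (interval 0.874 to 1.46). The median ratio of the list was 0.740 and 0.861.

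Of 41 neuropeptide receptors 2 were at least 2-fold higher in both libraries, beside 0.264% of all genes. Mc4r, the melanocortin receptor of energy balance, had ratios of 2.53 (16 UMIs, interval 1.43 to 4.17) and 2.37 (22 UMIs, interval 1.47 to 3.66), and Nmbr, the neuromedin B receptor, rested on 6 and 8 UMIs, with ratios of 2.08 (interval 0.750 to 4.64) and 2.27 (interval 0.958 to 4.62). In both libraries 6 were lower, beside 2.36% of all genes, namely Tacr3, Sstr1, Vipr2, Oxtr, Grpr and Rxfp1. No UMI of Oxtr, the oxytocin receptor, or Grpr, the gastrin-releasing peptide receptor, was found in any of these nuclei. Other nuclei had between 1.08 and 1.81 CPM of them. In the Cyp19a1-positive nuclei 1 UMI is 0.504 CPM in POA-CON and 0.420 CPM in POA-US, so both calls rest on few molecules. Tacr3, the neurokinin B receptor, had ratios of 0.363 and 0.416 with 9 and 8 UMIs and upper bounds of 0.692 and 0.825. Oprk1, the kappa opioid receptor, was higher in POA-US with a ratio of 2.20 (interval 1.78 to 2.70) and stood at 1.19 (interval 0.878 to 1.58) in POA-CON. Trhr, the receptor of thyrotropin-releasing hormone, likewise had a ratio of 2.21 (interval 1.73 to 2.78) in POA-US and 0.789 (interval 0.493 to 1.2) in POA-CON. Npy1r, a neuropeptide Y receptor, had ratios of 2.32 (interval 1.70 to 3.09) in POA-CON and 1.36 (interval 0.972 to 1.86) in POA-US.

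Of 64 transcription factors that could be read, Prox1 and Skor2 were at least 2-fold higher in both libraries, beside 0.264% of all genes. Prox1, a homeobox factor of several neuron classes, was 12.1 against 4.72 CPM in POA-CON (24 UMIs, ratio 2.56, interval 1.63 to 3.86) and 21.4 against 7.49 CPM in POA-US (51 UMIs, ratio 2.86, interval 2.10 to 3.8). Skor2, a transcriptional corepressor, had 7 and 25 UMIs and ratios of 2.37 (interval 0.937 to 5.02) and 4.24 (interval 2.68 to 6.44). Against other GABAergic nuclei, with both sides under 4 striatal markers, Prox1 was at 4.26 (interval 2.67 to 6.49) and 2.97 (interval 2.15 to 4.03) and Skor2 at 6.48 (interval 2.52 to 14.0) and 7.17 (interval 4.24 to 11.6). Nr2f1, a relative of Nr2f2, had ratios of 2.07 (interval 1.48 to 2.83) and 1.52 (interval 1.08 to 2.10).

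In both libraries 13 of the 64 transcription factors were at least 2-fold lower, beside 2.36% of all genes. They were Lhx8, Sox6, St18, Onecut1, Ebf1, Bnc2, Zeb2, Nfia, Nfib, Nfix, Tcf7l2, Lhx2 and Pou3f1. Several of these mark other neuron classes of the region, such as Lhx8 in cholinergic and related forebrain neurons. Ebf1 was 10.6 against 53.9 CPM in POA-CON (ratio 0.196, interval 0.121 to 0.301) and 6.72 against 104 CPM in POA-US (ratio 0.0646, interval 0.0369 to 0.105). Lhx2 and Pou3f1 had at most 2 UMIs in a library. Bnc2 had 0 and 2 UMIs where other nuclei had 11.8 and 8.11 CPM. Sox6, a factor of interneuron development, had ratios of 0.232 (interval 0.186 to 0.288) and 0.487 (interval 0.415 to 0.568). Foxp2 was higher, at 1186 against 423 CPM in POA-CON (ratio 2.80, interval 2.69 to 2.92) and 365 against 184 CPM in POA-US (ratio 1.98, interval 1.85 to 2.12). Its ratios to other GABAergic nuclei under 4 striatal markers were 3.13 (interval 2.93 to 3.35) and 1.53 (interval 1.39 to 1.68).

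When only nuclei under 4 striatal markers were compared with other GABAergic nuclei of that kind, 78 of 16669 genes (0.468%) were at least 2-fold higher in both libraries and 435 (2.61%) lower. Crh, Nmbr, Prox1 and Skor2 were among the 78, and Mc4r was not, with ratios of 1.72 (interval 0.553 to 4.09) and 2.48 (interval 1.39 to 4.12). Avp was no longer 2-fold lower, with ratios of 0.997 (interval 0.623 to 1.51) and 0.613 (interval 0.455 to 0.808), nor was Sstr1. Of the transcription factors 12 were among the 435. Sox6, Zeb2, Nfix and Lhx2 were not, Sox6 with ratios of 0.243 and 0.510, and Nkx2-1, Otp and Gbx1 were added. Astrocyte markers had a summed level of 32.7 CPM in POA-CON and 70.1 CPM in POA-US, below the 77.3 and 122 CPM of all other nuclei, and oligodendrocyte markers 54.4 and 86.1 CPM against 74.1 and 117 CPM. Microglia markers were at 134 and 159 CPM against 152 and 167 CPM, and endothelial and mural markers at 10.1 and 12.2 CPM against 13.5 and 20.2 CPM. None of these lists had a member at least 2-fold higher in both libraries.

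**Figure D3:**
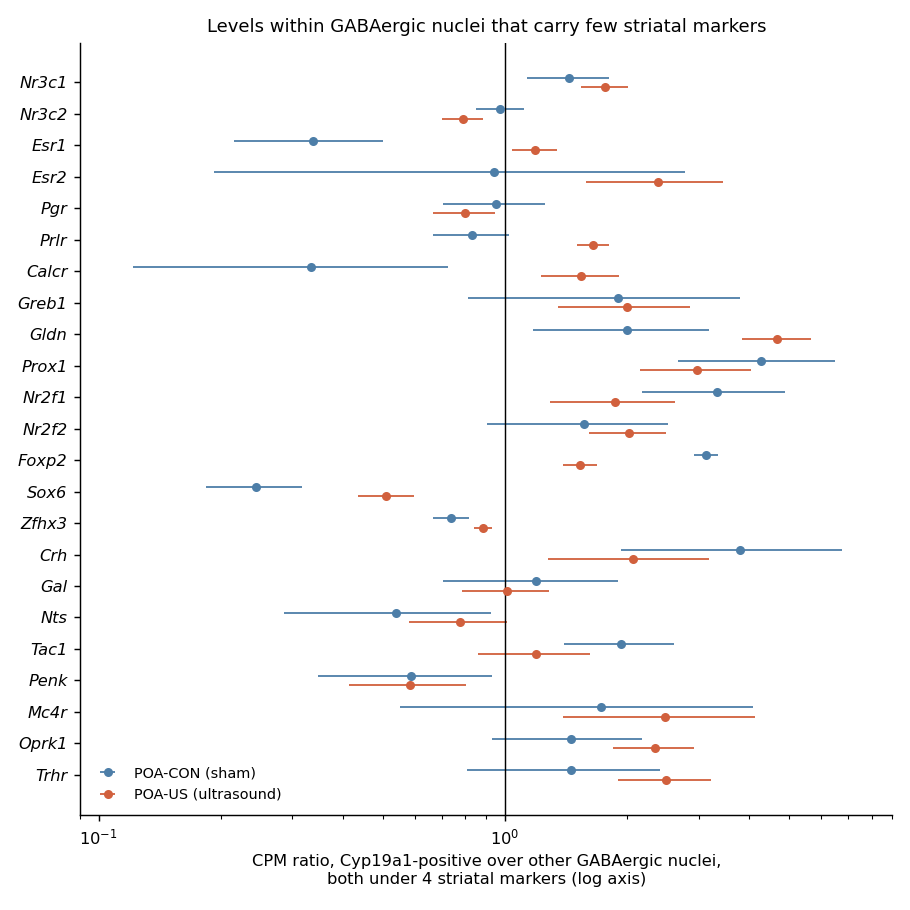
Ratio of CPM in Cyp19a1-positive GABAergic nuclei to other GABAergic nuclei, both under 4 striatal markers (x axis, log scale), for 23 of the genes described (y axis), in POA-CON (blue) and POA-US (orange) with 95% intervals for counting error. Prox1 lies near 4.26 and 2.97, and Esr1 lies on opposite sides of 1, at 0.336 and 1.19.

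Of genes with at least 1000 UMIs over all nuclei, the 10 with the highest ratios in both libraries were 6530403H02Rik, Zar1l, Atp6v1c2, Gm39456, Prox1, Spata13, Fam126a, Smpdl3b, Frmd6 and Rarb. Rarb is itself a striatal marker. 6530403H02Rik was at 515 CPM in POA-CON and 132 CPM in POA-US, where the striatal markers were also lower, and their part in it was not tested. Frmd6, a cytoskeletal adaptor, was more even, at 59.4 against 28.9 CPM (ratio 2.05, interval 1.69 to 2.47) and 73.0 against 29.4 CPM (ratio 2.49, interval 2.12 to 2.90), with ratios of 2.36 and 2.26 under 4 striatal markers. Spata13, a guanine nucleotide exchange factor, had ratios of 2.60 (interval 2.12 to 3.15) and 2.34 (interval 2.0 to 2.72), and 4.97 and 1.63 under 4 markers. The lowest 10 were Abtb2, Bnc2, E130114P18Rik, Ebf1, Egfr, Gm20658, Lgr5, Pdzrn3, Prima1 and Rxfp1.

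The genes whose detection increased most from nuclei with 1 Cyp19a1 UMI to those with 3 or more, all thinned to 2000 UMIs (239 and 84 nuclei), were Gabrg1, Gpc6, Fxr1, Grik1, Csmd2, Prlr, Efna5, Dpyd, Atp8a2 and E130307A14Rik. Gabrg1, a subunit of the GABA-A receptor, went from 20.5% to 42.9% of nuclei, with 11.1% and 19.0% in POA-CON and 29.5% and 50.8% in POA-US. Prlr went from 17.6% to 35.7%, and Dpyd, an enzyme of pyrimidine breakdown, from 43.9% to 61.9%. Efna5, an axon guidance ligand, went the other way within POA-CON, from 17.9% to 14.3%. POA-US held 63 of the 84 nuclei with 3 or more, so these pooled shares also carry the difference between libraries. Dpyd was the only one of the 10 above other nuclei in both libraries with its interval, at 412 against 283 CPM (ratio 1.46, interval 1.36 to 1.56) and 514 against 289 CPM (ratio 1.78, interval 1.68 to 1.89).

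Esr1 did not follow the Cyp19a1 count in POA-CON, with 33.2, 19.9 and 27.7 CPM in nuclei with 1, 2 and 3 or more UMIs of Cyp19a1, against 66.3 CPM in other GABAergic nuclei. In POA-US the levels were 106, 80.8 and 160 CPM, against 108 CPM. The levels of Prlr were 44.0, 59.8 and 114 CPM in POA-CON and 223, 159 and 333 CPM in POA-US. In nuclei with 3 or more Cyp19a1 UMIs, Nr2f2 was at 0 in all 21 of POA-CON and detected in 21 of 63 of POA-US. The 0 allows up to 12.8 CPM and so is not distinguishable from the 10.1 CPM of other GABAergic nuclei of POA-CON.

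Clustered on their own, the 396 nuclei fell into 7 groups that differed in library. Group 1 (96 nuclei, 15 from POA-CON and 81 from POA-US) was led by Tmem163, Sox6, Pappa, Nxph1, Tshz3 and Chrm2. Group 3 (60 nuclei, 6 and 54) had among its leading genes Gm29683, Esr2, Greb1, Haus4 and Neb, and group 6 (34 nuclei, 6 and 28) was led by Prox1, Qrfpr, Piezo2, Fign, Vav3 and Pls3. Group 2 (84 nuclei, 63 and 21) was led by 9330185C12Rik, Inf2, Pdzd2, Clic6, Drd3 and A830036E02Rik, and group 5 (51 nuclei, 46 and 5) by Epyc, Gm10754 and Meis1 together with Man1a, Adamts18 and Gm36431. Group 4 (57 nuclei, 34 and 23) had a median of 17959 UMIs, the highest of the groups, with Sim1 and B020031H02Rik in the lead, and group 7 (14 nuclei, 5 and 9) was led by Acss3, Rorb and Gal. Groups mostly of 1 library may be that library, and leading genes are what formed a group.

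The groups held different aromatase, receptor and striatal levels. Cyp19a1 chose the nuclei at 1 UMI, so its CPM is a description that depends on depth. Group 3 had the highest, 379 CPM, at the lowest median depth, 6256 UMIs, and 3 or more Cyp19a1 UMIs in 41.7% of nuclei. Group 4, the deepest, had the lowest, 95.5 CPM. Group 3 also had 234 CPM of Esr1, 550 CPM of Prlr and 63.1 CPM of Greb1, and an Esr1 UMI in 68.3% of its nuclei. None of its nuclei had 4 striatal markers. Groups 2 and 5 had 17.9 and 5.3 CPM of Esr1, 3.8 and 1.8 CPM of Prlr, and 4 or more striatal markers in 59.5% and 60.8% of nuclei. Prox1 was at 162 CPM in group 6, 61.3 CPM in group 7 and 33.8 CPM in group 3, and under 1 CPM in the remaining groups. Groups 2 and 4 carried 82 and 84 of the early-gene UMIs described below, and group 3 carried 8.

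**Figure D4:**
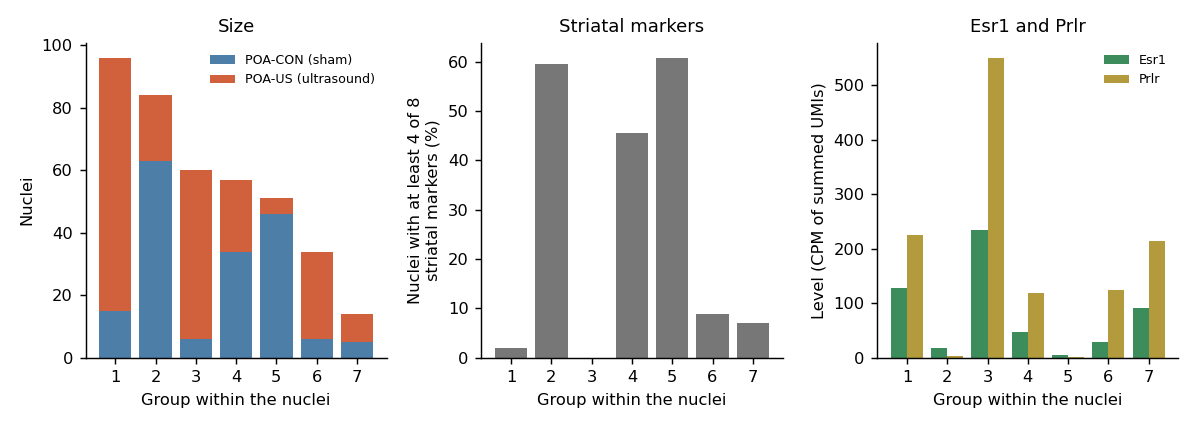
The 7 groups within the Cyp19a1-positive GABAergic nuclei (x axis): number of nuclei by library (left), percent with at least 4 of 8 striatal markers (middle) and CPM of Esr1 and Prlr (right). Group 3, with 54 of 60 nuclei from POA-US, has the highest Esr1 (234 CPM) and Prlr (550 CPM), and groups 2, 4 and 5 hold most of the striatal-marker nuclei.

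Between libraries, 6674 genes had at least 100 UMIs over the Cyp19a1-positive nuclei. At least 1.5-fold higher in POA-US were 611 of them (9.15%) and at least 1.5-fold lower 402 (6.02%), and the median ratio was 1.05. Under 4 striatal markers, 4977 genes could be read, with 386 higher (7.76%) and 276 lower (5.55%). The striatal markers themselves were lower in 4 of the 4 that could be read, and the ratio of their summed level was 0.362 in these nuclei against 0.438 in other GABAergic nuclei.

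Esr1 was 3.88 times as high in the Cyp19a1-positive nuclei of POA-US as in those of POA-CON (interval 2.92 to 5.24), while other GABAergic nuclei had a ratio of 1.63. Under 4 striatal markers the ratio was 5.08 (interval 3.34 to 8.08), against 1.44. Prlr had a ratio of 4.19 (interval 3.42 to 5.17) against 1.64, and of 2.75 (interval 2.19 to 3.49) against 1.38 under 4 markers. Calcr was 3.8 (interval 2.40 to 6.26) against 1.66, and Gldn 3.64 (interval 2.43 to 5.61) against 1.52. Pgr, at 1.54 (interval 1.18 to 2.01), differed as in other GABAergic nuclei, where the ratio was 1.57. Nr3c2 was lower, at 0.657 (interval 0.579 to 0.746) against 0.804. The steroid receptors counted as higher were Esr1 and Pgr of 6 read, and Nr3c2 as lower, beside 9.15% and 6.02% of all genes read. Under 4 markers Esr1 alone was called, and Nr3c2 stood at 0.691 (interval 0.579 to 0.826).

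Among transcription factors 4 of 23 were higher in POA-US, Nr2f2, Zfhx3, Sox5 and Sox6, beside 9.15% of all genes read. Lower were 9, beside 6.02% of all genes read, namely Isl1, Meis2, Pbx3, Foxp2, Tshz1, Lmo3, Lmo4, Bcl11a and Bcl11b. Nr2f2 had a ratio of 3.59 (interval 2.26 to 5.92) against 2.27 in other GABAergic nuclei. Foxp2 had 0.307 (interval 0.284 to 0.332) against 0.456, and Bcl11b, a factor of striatal projection neurons, 0.325 (interval 0.264 to 0.398) against 0.492. The ratio of Sox6 was above 1 in these nuclei (1.63, interval 1.25 to 2.14) where other GABAergic nuclei had a ratio of 0.796. Under 4 markers it was 1.42 (interval 1.04 to 1.97) and below the limit of 1.5-fold, so that Nr2f2, Zfhx3 and Sox5 were the 3 higher of 19 read. Under 4 markers, 7.76% of all genes read were higher and 5.55% lower, and 7 of the 9 were also lower. The striatal markers were lower too, and their part in this was not tested.

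Over all genes read between libraries, 9.15% were at least 1.5-fold higher and 6.02% lower. Of 7 peptide genes that could be read, Gal (2.28, interval 1.50 to 3.57) and Nts, neurotensin (2.30, interval 1.54 to 3.52), were higher in POA-US, and other GABAergic nuclei had ratios of 2.46 and 1.61. Tac1 (0.413, interval 0.302 to 0.561) and Tafa2, a chemokine-like peptide (0.623, interval 0.567 to 0.684), were lower, against 0.659 and 0.932. Of 7 peptide receptors Oprk1 (1.70, interval 1.2 to 2.44), Trhr (2.95, interval 1.82 to 4.98) and Npr2, a natriuretic peptide receptor (1.77, interval 1.24 to 2.56), were higher, and other GABAergic nuclei had ratios of 0.924, 1.08 and 1.09. Gpr83 was lower, at 0.622 (interval 0.432 to 0.891). Gal, Nts, Tac1, Trhr and Gpr83 had too few UMIs under 4 striatal markers for the minimum of 100 and could not be called, with ratios of 1.88 (interval 1.10 to 3.35), 2.04 (interval 1.10 to 4.07), 0.471 (interval 0.302 to 0.735), 2.03 (interval 1.14 to 3.83) and 0.567 (interval 0.282 to 1.15). Of the 3 peptides and 4 receptors read there, Agrp, Oprk1 and Npr2 were higher and Tafa2 lower, beside 7.76% and 5.55% of all genes.

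Genes known to be induced rapidly by neuronal activity were higher in POA-US, and unevenly so. The summed UMIs of Fos, Fosb, Nr4a1, Egr1 and Dusp1 were 31 in the Cyp19a1-positive nuclei of POA-CON (15.6 CPM, interval 10.6 to 22.2) and 192 in those of POA-US (80.6 CPM, interval 69.6 to 92.8), a ratio of 5.16 (interval 3.52 to 7.81). Other GABAergic nuclei had 26.2 and 74.9 CPM, a ratio of 2.86 (interval 2.71 to 3.01). The level in POA-CON was therefore below that of the other nuclei, and the level in POA-US was near it. Nr4a1, an orphan nuclear receptor, went from 2 UMIs to 58, Fos from 1 to 32, Fosb from 0 to 52, Egr1 from 20 to 34 and Dusp1, a MAP kinase phosphatase, from 8 to 16.

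In POA-US most of the early-gene UMIs lay in nuclei with striatal markers. The 30 nuclei with 4 or more markers carried 116 of the 192 UMIs (210 CPM), and the 83 such nuclei of POA-CON carried 19 (17.2 CPM), a ratio of 12.2 (interval 7.47 to 21.0). Other GABAergic nuclei of that kind reached 214 CPM against 29.8, a ratio of 7.19 (interval 6.54 to 7.90). Under 4 markers the Cyp19a1-positive nuclei had 12 and 76 UMIs (13.6 and 41.5 CPM), a ratio of 3.05 (interval 1.65 to 6.17), and other GABAergic nuclei a ratio of 2.34 (interval 2.20 to 2.48). Under 3 markers only 3 and 30 UMIs remained, and the ratio was 2.42 (interval 0.750 to 12.4). An early-gene UMI was present in 25 of the 175 nuclei of POA-CON and in 63 of the 221 of POA-US, and a summed level does not tell more nuclei from more RNA in each. No single nucleus carried more than 5 of the 31 or 18 of the 192 UMIs, but the top 5 nuclei carried 11 and 52 of them. Among nuclei with 4 or more markers, the top 5 carried 11 of the 19 and 52 of the 116 UMIs. The intervals, for counting error only, do not cover such unevenness between nuclei. Median depth was 10928 and 17309 UMIs in the nuclei with 4 or more markers and 8296.5 and 8098 in the others.

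**Figure D5:**
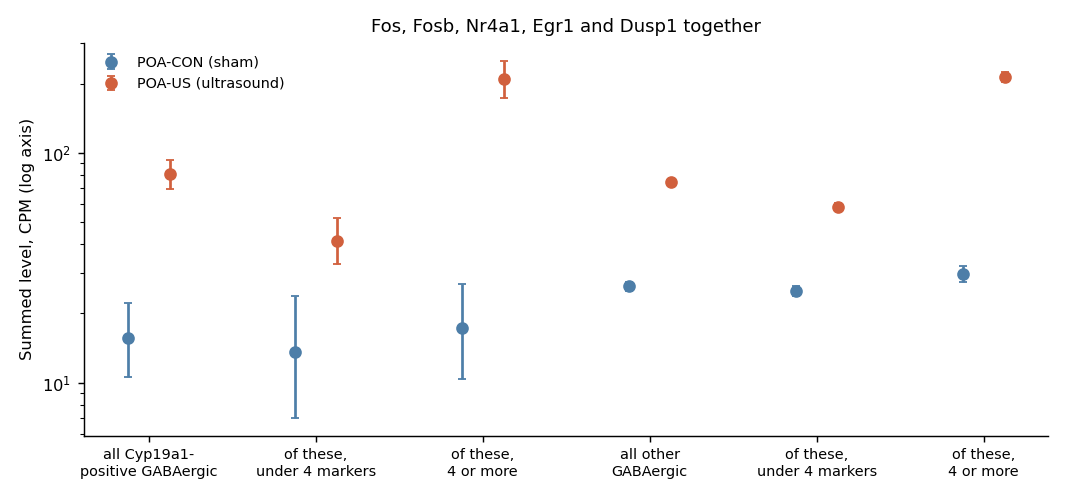
Summed level of Fos, Fosb, Nr4a1, Egr1 and Dusp1 in CPM (y axis, log scale) in POA-CON (blue) and POA-US (orange), for Cyp19a1-positive GABAergic nuclei (left 3) and all other GABAergic nuclei (right 3), all together and by striatal markers, with exact 95% Poisson intervals. In POA-US the nuclei with 4 or more markers reach 210 and 214 CPM, and those under 4 markers 41.5 and 58.4 CPM.

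The wider list of 30 rapid immediate-early genes gave 79.6 CPM in POA-CON and 394 CPM in POA-US (ratio 4.95, interval 4.18 to 5.90), against a ratio of 2.57 in other GABAergic nuclei. The ratio was 11.4 (interval 9.18 to 14.3) in nuclei with 4 or more striatal markers, 3.03 (interval 2.32 to 4.03) under 4 markers, where other GABAergic nuclei had 2.09, and 1.97 (interval 1.30 to 3.12) under 3 markers. Npas4, a neuron-specific activity-induced transcription factor, Gadd45g and Tiparp were the 3 of its members with enough UMIs to be read singly. All 3 were higher, beside 9.15% of all genes read. None of the 30 had, under 4 striatal markers, enough UMIs to be read singly. Npas4 went from 3.53 to 64.2 CPM (ratio 18.2, interval 8.63 to 46.1), where other GABAergic nuclei had a ratio of 6.12. Of 7 delayed activity-induced genes read, Rgs2, Scg2 and Rheb were higher, beside the same 9.15% of all genes. Delayed genes together differed less, at 429 and 616 CPM (ratio 1.44, interval 1.32 to 1.56), against 1.29 in other GABAergic nuclei. Their summed level had a ratio of 2.33 (interval 2.06 to 2.64) in nuclei with 4 or more striatal markers, 1.18 (interval 1.05 to 1.34) under 4 markers and 1.01 (interval 0.851 to 1.2) under 3 markers, where no difference was detectable. Under 4 markers Scg2 alone of 4 read was higher, beside 7.76% of all genes read. The part of striatal content and of depth in these differences was not tested.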

How the data were processed

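Nuclei from the preoptic area of POA-CON and POA-US mice were profiled with 10x Genomics 3′ chemistry. The authors made the deposited counts, whole-number UMI counts per gene and barcode that were not normalized, with Cell Ranger 6.1.1 on mm10. Whether intronic reads were included was not given in the sources used here. The matrices held 11725 and 12075 barcodes and 101948623 and 95029281 UMIs.

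Nuclei with 200 to 7500 genes, at most 5% mitochondrial UMIs and at least 2000 UMIs were kept, 11040 and 9912, with medians of 7663.5 and 7376 UMIs. Doublets were limited by the 7500-gene bound alone, no caller was run, and a limit of 15000 UMIs was tried as an alternative. The libraries shared 29 barcodes, none of them among the Cyp19a1-positive nuclei.

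UMIs were summed per library and scaled to CPM. Ratios carry exact conditional binomial intervals, levels exact Poisson intervals and shares exact Clopper-Pearson intervals, all for counting error only. With 1 library for each treatment no test between treatments was made. Against other nuclei, genes with at least 200 UMIs were read and called at 2-fold in both libraries. Between libraries, genes with at least 100 UMIs in the Cyp19a1-positive nuclei were called at 1.5-fold. Groups came from 2000 variable genes, 20 principal components, 15 neighbors and Leiden clustering (leidenalg 0.10.2, resolution 0.8). Python 3.11.15, numpy 2.4.6, scipy 1.17.1, pandas 2.3.3, scikit-learn 1.9.0 and, for TMM factors, edgeR 4.0.16 in R 4.3.3 were used, and the calculations were tested on simulated data.

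Genes named are Cyp19a1, Gad1, Gad2, Slc32a1, Slc17a6 and Nr2f2, the steroid receptors, the highest 4 and lowest 3 of each list, the 10 highest and 10 lowest of all genes against other nuclei, the 8 highest and 8 lowest between libraries, the 5 early genes, up to 6 leading genes of each group and the 10 genes most like Cyp19a1. Some of these genes are not reported here. List members past a fold limit are also named, and exceptions are said to be such. The nuclei and the lists were chosen with earlier results of these data known. Positions and start windows came from GRCm38 and RefSeq, which matched by symbol.

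Alternatives were other depth limits, Cyp19a1 thresholds, comparison nuclei, gene minimums, equal weights, TMM scaling and, chosen after seeing the data, calls that also use intervals, and leaving out nuclei with 4 or more striatal markers (library, early-gene and receptor results) or 3 or more (shares and early genes).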

Additional observations from a re-analysis of the deposited data

Results flagged for a closer look

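Of 112 genes of the receptor, peptide and transcription factor lists that were looked at, 4 had ratios of Cyp19a1-positive to all other nuclei on opposite sides of 1 in the libraries, each with its interval. The difference between libraries was not tested. Prlr had ratios of 0.571 in POA-CON and 1.52 in POA-US, and Calcr 0.565 and 1.31. Tafa2 ran the other way, at 1.33 and 0.873. Dlx1, a homeobox factor of inhibitory neurons that is named here because of this pattern, had 15 and 64 UMIs and ratios of 0.545 and 1.59.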

How the results depend on the processing

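No paired analysis was possible because each treatment has 1 library. Of the 66 alternative values for the main results, 37 stayed within the limits set for them and 29 moved. Counts of genes and of groups, most of these values, could only stay or move. Of the ratios, which could also reverse direction, 0 did. A count within its limits can still hold other genes. With equal weight for each group, 471 genes were higher and 412 lower between libraries, of which only 174 of the 611 and 101 of the 402 were shared. The share ratio of POA-US to POA-CON (1.41) was 1.90 with at least 2 Cyp19a1 UMIs, 1.91 after thinning, 1.98 without nuclei with at least 4 striatal markers and 3.48 without those with at least 3. Genes at least 2-fold higher than in other nuclei (44) numbered 133 against Esr1-positive GABAergic nuclei, 101 with at least 2 Cyp19a1 UMIs, 17 at a minimum of 1000 UMIs, 305 with no minimum, 70 at up to 15000 UMIs and 71 without nuclei with at least 4 striatal markers, of which 37, 24, 17, 44, 22 and 22 were among the 44. Genes lower (393) numbered 609 with equal weight for each nucleus, 809 with at least 2 Cyp19a1 UMIs, 77 at 1000 UMIs, 5268 with no minimum, 651 at up to 15000 UMIs and 95 where intervals also had to stay below 1, which left 32 of the 44 higher. Between libraries, genes higher (611) numbered 201 and 1982 at minimums of 300 and 20 UMIs, 345 with at least 2 Cyp19a1 UMIs, 336 in Esr1-positive nuclei and 386 without nuclei with at least 4 striatal markers, and genes lower (402) 186, 1144 and, in Esr1-positive nuclei, 218. Minimums change how many genes are read, and for the rest the cause was not tested. TMM scaling, with a log2 shift of -0.06, gave 500 higher and 475 lower. The early-gene ratio (5.16) was 8.4 with equal weight for each group, 3.4 at up to 15000 UMIs, 3.05 without nuclei with at least 4 striatal markers and 2.42 without those with at least 3. The Esr1 share ratio in POA-CON (0.259) was 0.845 without thinning. Clustering gave 6 groups at resolution 0.4 and 7 at 1.2.

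With 1 pool of 4 mice for each treatment, no spread between mice can be had. In the Cyp19a1-positive nuclei 1 UMI is 0.504 CPM in POA-CON and 0.420 CPM in POA-US, so genes under a few CPM rest on few molecules.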

Other observations

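Mitochondrially encoded genes, a sign of RNA from outside the nucleus, were at 847 CPM in the Cyp19a1-positive nuclei of POA-CON and 730 CPM in those of POA-US, against 598 and 716 CPM in all other nuclei. Under 4 striatal markers the levels were 1144 and 708 CPM, and under 3 markers 545 and 723 CPM, so the high value of POA-CON lay in nuclei with 3 markers.

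Xist, the RNA of the inactive X chromosome, was detected in 98.6% and 97.6% of all nuclei and in 99.4% and 99.1% of the Cyp19a1-positive ones. Y-linked genes without Xist were seen in 2 nuclei of POA-CON and 4 of POA-US, none of them Cyp19a1-positive. The labels give no sex for the pooled mice.

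Cholinergic marker genes were near the floor in the Cyp19a1-positive nuclei. Slc5a7, the choline transporter, had 1 UMI in POA-CON, where other nuclei had 20.7 CPM, and 6 UMIs in POA-US (2.52 against 6.78 CPM, ratio 0.372, interval 0.136 to 0.814). Slc17a8, a vesicular glutamate transporter, had 15 UMIs in POA-CON (ratio 2.14, interval 1.18 to 3.57) and 1 in POA-US (ratio 0.162, interval 0.00408 to 0.911).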
